A study of Mus musculus with 4 samples.

Results

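Cytochrome P450 genes were examined in RNA sequencing libraries of mouse skeletal muscle. The members were the protein-coding genes of the deposited table whose symbol had the form Cyp, a family number, a subfamily letter and a gene number. This rule gave 31 of the 16472 genes listed, of which 12779 were protein-coding, in 19 subfamilies of 10 families. All 4 libraries came from wild-type mice. In 2 libraries the RNA was from isolated mitochondria, and in 2 from tissue labelled as lacking mitochondria, although their titles name total tissue and a figure legend of the study speaks of lysates of the whole muscle. The name remaining tissue is used for them, and it is not settled if they represent depleted or whole tissue. Age, sex and strain of the mice are not given in the sources used here. The labels do not say that the 2 libraries of a group came from separate animals, so p-values measure only the spread between these libraries, which may be technical.

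P450 enzymes are heme proteins that oxidize drugs, fatty acids, sterols, bile acids and retinoids. Most are anchored in the endoplasmic reticulum and take electrons from P450 oxidoreductase or cytochrome b5, whereas a small group in the inner mitochondrial membrane takes them from ferredoxin and its reductase. Many members of families Cyp1 to Cyp3 are known as abundant enzymes of the liver, and skeletal muscle is not a main site of them. A mitochondrial P450 is encoded in the nucleus and its protein is imported, so its place in the cell does not by itself say where its mRNA lies.

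The values are normalized counts, that is reads per gene divided by a size factor of the library and rounded. In isolated mitochondria 1 read was worth 9.049 and 5.059 normalized counts in replicates 1 and 2, whereas in remaining tissue it was worth an estimated 0.142. Isolated mitochondria held 42749263 and 35306106 reads in the table, of which 95.28% and 94.12% were from the mitochondrial genome. Remaining tissue held an estimated 15702491 and 15300357 reads, with 22.31% and 20.53% from that genome. A gene outside the mitochondrial genome had a median of 1 and 2 reads in isolated mitochondria and of 85 in both libraries of remaining tissue. Over the 6916 genes tested (mean of 20 or more), the log2 values of replicates correlated with r = 0.986 in remaining tissue and r = 0.665 in isolated mitochondria, given as a description across genes. Markers of myofibres, which define the labelled tissue, were present in all libraries (sums of 481172 and 463542 normalized counts in remaining tissue, and of 56221 and 48000 in isolated mitochondria).

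Promoter sequences are shown for the 4 members around which the results below turn. They are Cyp2e1, the only member called different, Cyp3a11 and Cyp1a2 as further enzymes best known from liver, and Cyp27a1, the only mitochondrial P450 in the table. Each run is the 250 bases before the RefSeq start on GRCm38.p6, 5′ to 3′ on the strand of the gene. Capitals mark matches to TATAAA (called TATA box), GGGCGG (called GC box) and CAAAGTCCA (called HNF4 core, from sites of a liver factor), each searched on both strands.
Cyp2e1, chr7:140763569-140763818, plus strand: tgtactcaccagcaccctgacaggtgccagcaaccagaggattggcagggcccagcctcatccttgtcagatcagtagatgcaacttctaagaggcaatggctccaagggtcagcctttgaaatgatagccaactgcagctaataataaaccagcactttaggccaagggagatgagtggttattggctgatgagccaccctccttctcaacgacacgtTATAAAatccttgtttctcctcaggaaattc
Cyp3a11, chr5:145879855-145880104, minus strand: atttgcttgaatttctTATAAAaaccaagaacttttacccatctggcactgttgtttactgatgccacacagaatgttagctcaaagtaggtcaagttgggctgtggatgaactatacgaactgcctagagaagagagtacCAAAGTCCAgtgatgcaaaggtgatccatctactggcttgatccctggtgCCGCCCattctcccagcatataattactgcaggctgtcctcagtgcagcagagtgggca
Cyp1a2, chr9:57683656-57683905, minus strand: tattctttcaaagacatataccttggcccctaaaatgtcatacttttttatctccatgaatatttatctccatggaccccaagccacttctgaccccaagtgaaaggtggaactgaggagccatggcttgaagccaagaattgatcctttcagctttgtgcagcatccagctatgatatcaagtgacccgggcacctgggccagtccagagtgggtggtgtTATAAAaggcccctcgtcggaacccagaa
Cyp27a1, chr1:74713285-74713534, plus strand: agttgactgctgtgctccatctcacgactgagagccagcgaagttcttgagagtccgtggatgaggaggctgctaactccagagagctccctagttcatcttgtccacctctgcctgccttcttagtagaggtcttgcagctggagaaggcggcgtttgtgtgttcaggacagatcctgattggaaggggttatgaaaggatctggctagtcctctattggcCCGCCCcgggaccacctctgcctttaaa
In Cyp2e1 the TATA box began 31 bases before the start and in Cyp1a2 29 bases before it. In Cyp3a11 the TATAAA match lay far upstream, at 234 bases, with the HNF4 core at 109 and the GC box, on the opposite strand, at 59. Cyp27a1 had no TATAAA match and held a GC box on the opposite strand at 28 bases.

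RefSeq promoters matched 26 of the 31 members. TATAAA was found in 11 of the 26 (42.3%), against 12.97% of all 27025 promoters. GGGCGG was found in 10 (38.5%), against 32.94% of all, and GTTAAT, a core of HNF1 sites, in 1 (3.8%), against 6.52%. The HNF4 core was in 3 promoters (11.5%), those of Cyp2c70, Cyp3a11 and Cyp8b1, against 0.38% of all. Of the 11 promoters with TATAAA, 10 belonged to the 16 with a sequence among members whose values in both libraries of isolated mitochondria lay above both of remaining tissue, and 1 to the 10 other promoters. The GC box had the reverse distribution, with 3 of the 16 and 7 of the 10. None of the 4 motifs contains another, a match is a description and not a site, and these counts were made after the expression values were known.

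P450 transcripts were scarce in both fractions, and most were at the edge of detection. In remaining tissue 26 of the 31 members had a mean under 10 normalized counts. All members together summed to 247 and 231 normalized counts there, and to 2496 and 619 in isolated mitochondria. As a share of all reads the order was the opposite, with 111 ppm (95% Wilson interval 106 to 116) and 106 (101 to 111) in remaining tissue, and 6.46 (5.74 to 7.26) and 3.48 (2.92 to 4.16) in isolated mitochondria, where nearly all reads were from the mitochondrial genome. Values in both libraries of isolated mitochondria were above both of remaining tissue for 17 members and below both for 4, and the groups overlapped for 10. Among all 16472 genes these shares were 18.4% above and 43.1% below. A single read in isolated mitochondria already exceeds the values that most members had in remaining tissue, so a count of members above says little about any gene of few reads.

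**Figure D1:**
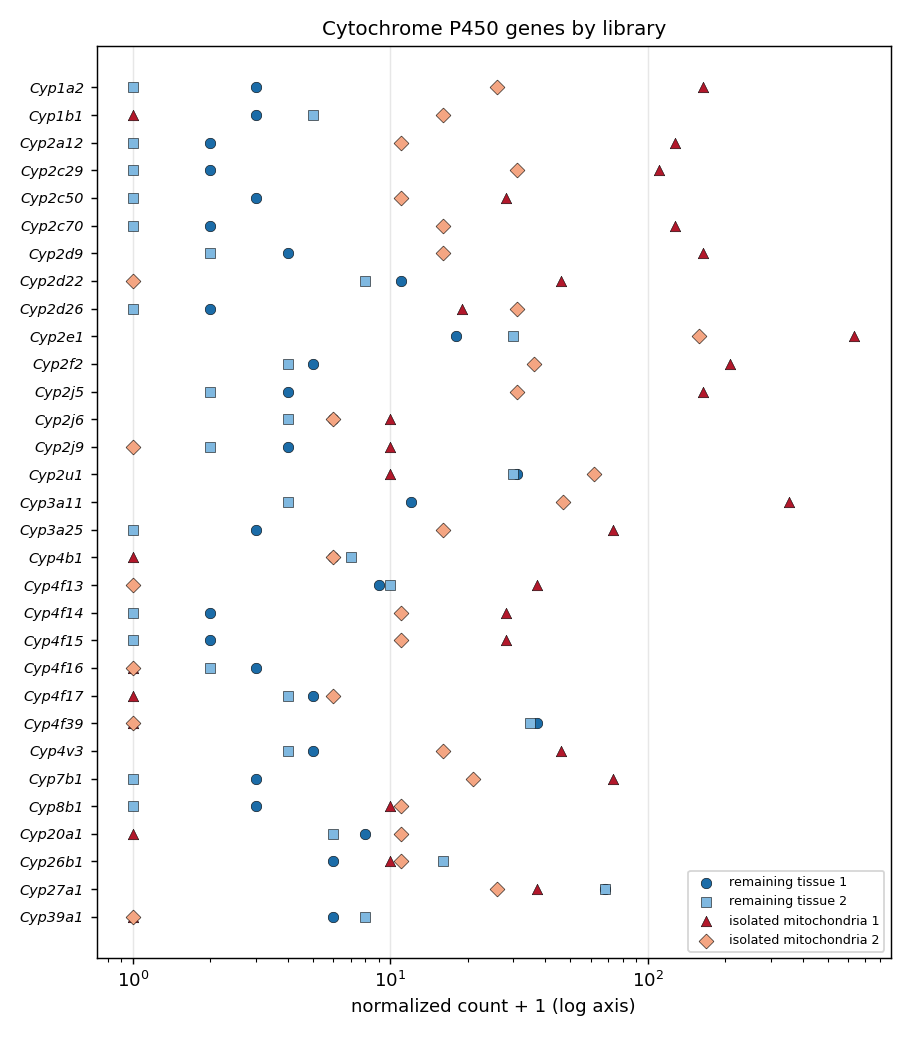
Normalized count plus 1, on a log axis, of each of the 31 P450 genes in the 4 libraries, with circles and squares for remaining tissue replicates 1 and 2 and triangles and diamonds for isolated mitochondria replicates 1 and 2 (coinciding points hide each other). Cyp2e1 reached 633 in isolated mitochondria replicate 1, whereas Cyp27a1 and Cyp4f39 were higher in remaining tissue.

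The 13 members whose 4 values averaged 20 or more were tested. For 10 of the 13 the mean in remaining tissue was under 20, so they passed only through their level in isolated mitochondria and had to be higher there. They were all tested members but Cyp2e1, Cyp2u1 and Cyp27a1. This limit holds for each call and each lack of overlap given for them below. With limma on log2(normalized count + 1) and Benjamini-Hochberg adjustment over 6916 genes, 1 member was called higher in isolated mitochondria and 0 lower at an adjusted p under 0.05. Of all genes tested 7.32% were called higher and 9.30% lower. At an unadjusted p under 0.05, 6 members were higher and 1 lower. With edgeR on the recovered or estimated reads, 7 members were called higher and 0 lower, against 16.0% and 12.6% of all genes tested. The median log2 difference of all genes tested was -0.44 with limma. Under scaling to the total of all genes this median was -6.90 (-3.34 under scaling to nuclear genes alone), and the direction turned for 7 of the 11 tested members that were higher in isolated mitochondria. In bulk libraries, fewer cells of a type and less RNA per cell cannot be told apart.

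Cyp2e1, which oxidizes ethanol, acetone and other small molecules, was the most abundant member in isolated mitochondria. It had 17 and 29 normalized counts in remaining tissue and 633 and 157 in isolated mitochondria, where 70 and 31 reads lay behind the values. Both libraries of isolated mitochondria were above both of remaining tissue, and the 2 replicates of isolated mitochondria differed widely. The mean was 395 ± 337 (SD, n = 2) against 23.0 ± 8.49 (SD, n = 2), 17.2-fold higher. On the log2(normalized count + 1) scale the difference was 3.77 (SE 0.77), with an adjusted p of 0.0473 from limma. With edgeR it was 4.20 with an adjusted p of 0.0103. The call was narrow. Without isolated mitochondria replicate 1 the limma difference was 2.77 with an adjusted p of 0.0579, under scaling to nuclear genes alone it was 0.81 (adjusted p = 0.258), and under scaling to the total of all genes it turned to -3.03.

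Cyp3a11, the main drug and steroid oxidase of subfamily Cyp3a in mouse liver, had 11 and 3 normalized counts in remaining tissue and 353 and 46 in isolated mitochondria (39 and 9 reads). The groups did not overlap, and the difference of 4.22 (SE 1.20) missed the threshold with limma (adjusted p = 0.0878) and passed it with edgeR (4.81, adjusted p = 0.0285). Cyp1a2, which oxidizes aromatic amines and caffeine, had 2 and 0 in remaining tissue and 163 and 25 in isolated mitochondria (18 and 5 reads). Its difference was 5.24 (SE 1.55), not called by limma (adjusted p = 0.0939). Cyp1a2, Cyp3a11 and Cyp2e1 were thus all more variable between the 2 libraries of isolated mitochondria than between those of remaining tissue in normalized counts.

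Cyp2f2, known for activating naphthalene in airway club cells and also made in liver, had 4 and 3 normalized counts in remaining tissue and 208 and 35 in isolated mitochondria. Its limma difference was 4.28 (SE 1.01, adjusted p = 0.0623). Its exons overlap those of Gm15883 on the opposite strand. By the study's methods reads overlapping several genes were excluded, so where counting did not use strand, reads of the overlap would be lost to both genes. Cyp2j5, an epoxygenase of arachidonic acid in kidney and liver, had 3 and 1 in remaining tissue and 163 and 30 in isolated mitochondria (limma 4.66, SE 1.16, adjusted p = 0.069). Both were called higher by edgeR, with adjusted p of 0.0149 and 0.0263, and for both the libraries of the groups did not overlap. Both passed the filter only through isolated mitochondria and had to be higher there.

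In subfamily Cyp2c, Cyp2c29, an arachidonic acid epoxygenase, had 1 and 0 normalized counts in remaining tissue and 109 and 30 in isolated mitochondria (limma 5.37, SE 1.61, adjusted p = 0.0958). Cyp2c70, which makes muricholic acids, the rodent bile acids, had 1 and 0 against 127 and 15 (5.0, SE 2.09, adjusted p = 0.169). Neither was called by limma, whereas edgeR called both (adjusted p of 0.0386 and 0.0481). With the third member the Cyp2c subfamily summed to 4 and 0 in remaining tissue and to 263 and 55 in isolated mitochondria. Cyp2d9 is a steroid hydroxylase of male liver and Cyp2a12 a hydroxylase of bile acids. Cyp2d9 had 3 and 1 in remaining tissue and 163 and 15 in isolated mitochondria (limma 4.18, SE 1.53, adjusted p = 0.136), and Cyp2a12 had 1 and 0 against 127 and 10 (4.73, SE 2.45, adjusted p = 0.237). With edgeR the adjusted p was 0.0396 for Cyp2d9 and 0.0554 for Cyp2a12. In replicate 2 of isolated mitochondria these 2 genes rested on 3 and 2 reads, and 12.9% and 9.2% of their possible reads of 75 bases also occur in related genes.

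Cyp3a25, a further liver member of Cyp3a, had 2 and 0 normalized counts in remaining tissue and 72 and 15 in isolated mitochondria (limma 4.30, SE 2.12, adjusted p = 0.221). Cyp2u1, a hydroxylase of long-chain fatty acids with wide tissue distribution, had 30 and 29 in remaining tissue and 9 and 61 in isolated mitochondria, which were 1 and 12 reads, so its level in remaining tissue was near that of Cyp2e1. The groups overlapped, with a limma difference of -0.29 (SE 0.98, adjusted p = 0.844) that was 0.74 with edgeR and 1.02 (adjusted p = 0.0151) without isolated mitochondria replicate 1, so no direction can be given. Its exons overlap 4930534D22Rik on the opposite strand.

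By families, the 17 members of Cyp1 to Cyp3 summed to 98 and 81 normalized counts in remaining tissue and to 2235 and 499 in isolated mitochondria, where 247 and 99 reads lay behind the sums. Of these 17, 12 were above remaining tissue in both libraries of isolated mitochondria, 0 below, and 5 overlapped, against 18.4% above and 43.1% below among all genes, and members near 0 in remaining tissue were above it with 1 or a few reads. Subfamily Cyp3a summed to 13 and 3 against 425 and 61, Cyp2d to 14 and 8 against 226 and 45, and Cyp2j to 11 and 5 against 181 and 35. Replicate 1 of isolated mitochondria was above replicate 2 in each of these sums. No test was made of sums.

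**Figure D2:**
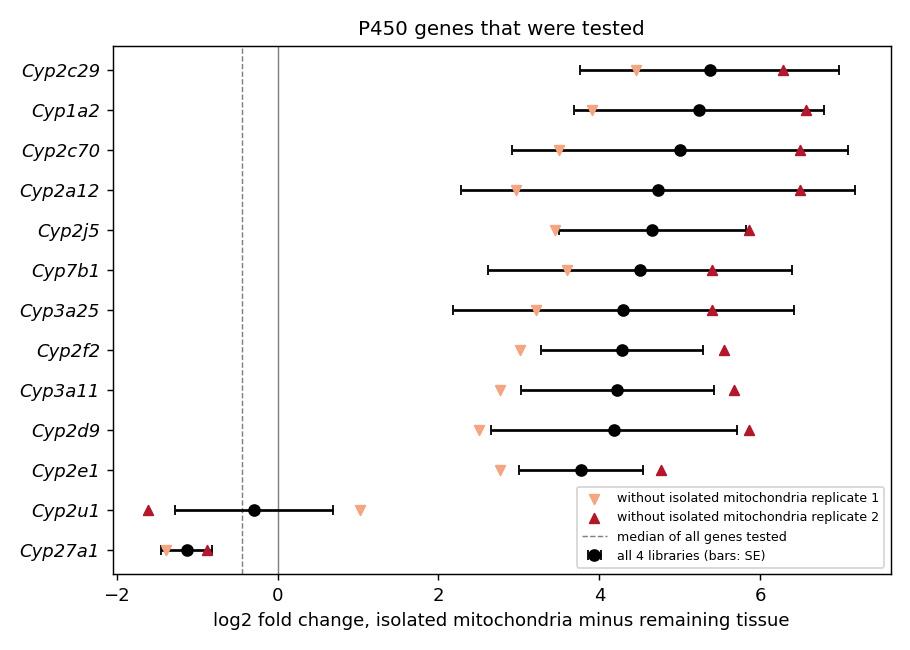
Log2 difference of isolated mitochondria minus remaining tissue for the 13 members tested, as circles with the standard error from limma, triangles for the same without isolated mitochondria replicate 1 (pointing down) or 2 (pointing up), and a dashed line at the median of all genes tested (-0.44). Cyp2e1, at 3.77, was the only member with an adjusted p under 0.05, and Cyp27a1 and Cyp2u1 were the only tested members below 0.

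Cyp27a1 is the sterol 27-hydroxylase of the inner mitochondrial membrane and acts in bile acid and oxysterol synthesis. Of the 17 members of Cyp1 to Cyp3, 12 were above remaining tissue in both libraries of isolated mitochondria, against 18.4% of all genes. Those near 0 in remaining tissue needed only 1 or a few reads for this. Of the other members with a mean of 20 or more in remaining tissue, Cyp2e1 was above, Cyp2u1 overlapped and Cyp4f39 was below. Cyp27a1 was below remaining tissue, without a call. The gene is at chr1:74713574-74737892 on the plus strand of GRCm38. It had 67 and 67 normalized counts in remaining tissue and 36 and 25 in isolated mitochondria, which were 4 and 5 reads. Both libraries of isolated mitochondria were below both of remaining tissue, as for 43.1% of all genes. The means were 30.5 ± 7.78 (SD, n = 2) against 67.0 ± 0.0 (SD, n = 2). The limma difference was -1.13 (SE 0.32), which missed the threshold (adjusted p = 0.0851), as did the edgeR difference of -0.96 (adjusted p = 0.097). It lay at -0.69 from the median difference of all genes. With 1 library left out, the adjusted p was 0.0134 (-1.39) or 0.0121 (-0.88) without isolated mitochondria replicate 1 or 2, where the spread came from the 2 libraries of remaining tissue alone, and 0.762 or 0.755 without remaining tissue replicate 1 or 2, where it came from isolated mitochondria alone. With DESeq2 the adjusted p was 0.184. The threshold was passed under scaling to nuclear genes alone (-4.04, adjusted p = 0.00368) and to the total of all genes (-7.61, adjusted p = 7.45e-05), where most genes were lower. Its sign was the same under each of the 14 alternatives tried.

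Per kilobase of exon, Cyp27a1 had the highest level of the members in remaining tissue, at 30.8 normalized counts per kilobase, before Cyp4f39 at 12.3, Cyp2e1 at 10.7 and Cyp2u1 at 5.63. In isolated mitochondria the order was headed by Cyp2e1 at 183, before Cyp2f2 at 60.0, Cyp1a2 at 46.7, Cyp2j5 at 41.2 and Cyp3a11 at 39.2, with Cyp27a1 at 14.0. With 2 libraries per group and the spread of isolated mitochondria, the order of neighbours after Cyp2e1 there is within the spread. No sequence of 75 bases of Cyp27a1 exons occurs in another gene. The list of mitochondrial P450s held 6 genes, and the others, which act in steroid hormone and vitamin D metabolism, were not analysed here.

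The electron donors of both systems were compared as well. Fdx1, the ferredoxin that serves mitochondrial P450s, had 14 and 17 normalized counts in remaining tissue and 54 and 51 in isolated mitochondria. The latter were 6 and 10 reads, and the limma difference was 1.70 (SE 0.34, adjusted p = 0.0465). Its mean in remaining tissue, 15.5, was under 20, so Fdx1 passed the filter only through isolated mitochondria and had to be higher there. Fdxr, its reductase, had 3 and 4 against 9 and 0 and was not tested. Of the 7 genes of the microsomal list, all tested, limma called 2 higher and 0 lower, against 7.32% and 9.30% of all genes tested. Cyb5a, the microsomal cytochrome b5, rose from 19 and 21 to 199 and 111 (2.83, SE 0.38, adjusted p = 0.0231), and Cyb5r3, a reductase of cytochrome b5, from 62 and 60 to 163 and 137 (1.28, SE 0.23, adjusted p = 0.0379). These directions hold on the deposited scale, since under scaling to nuclear genes alone the differences of Fdx1, Cyb5a and Cyb5r3 were -1.19, -0.11 and -1.69, and under scaling to the total of all genes -4.86, -3.91 and -5.50. Without remaining tissue replicate 1 or 2 the limma calls of Fdx1 (adjusted p = 0.605 or 0.502) and Cyb5r3 (adjusted p = 0.432 or 0.455) were lost.

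Por, the oxidoreductase on which microsomal P450s depend, had 27 and 39 normalized counts in remaining tissue and 63 and 51 in isolated mitochondria (0.79, SE 0.34, adjusted p = 0.176 with limma). The groups did not overlap, yet the difference was far under that of Cyp2e1. Pgrmc1, a heme-binding partner of P450 enzymes, had 17 and 12 against 127 and 51 (2.42, SE 0.56, adjusted p = 0.0604). Like Fdx1, it passed the filter only through isolated mitochondria. Cyb5b, the cytochrome b5 of the mitochondrial outer membrane, overlapped between groups with 105 and 109 against 172 and 51. Cyb5r1 and Pgrmc2, with limma differences of -1.47 and -0.97, were not called.

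**Figure D3:**
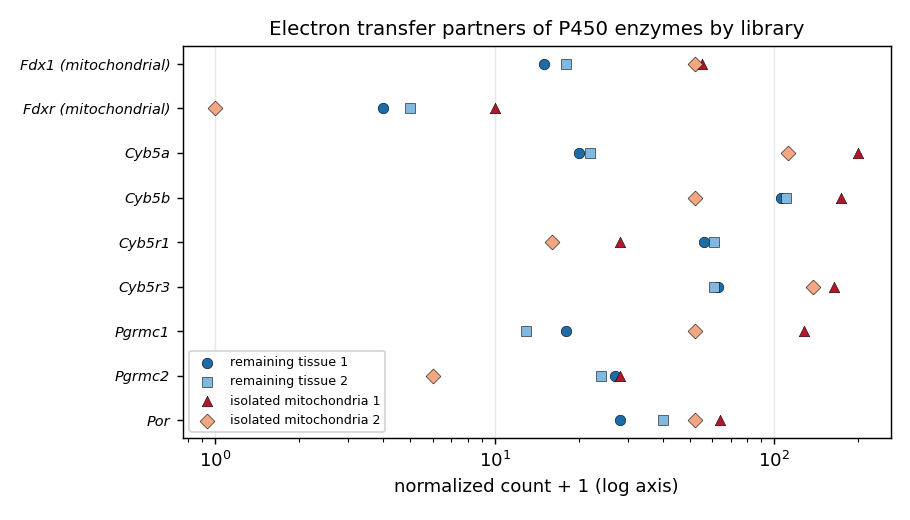
Normalized count plus 1, on a log axis, of genes of the electron transfer partners of P450 enzymes in each of the 4 libraries, with the mitochondrial ferredoxin system in the upper rows. On the deposited scale both libraries of isolated mitochondria lay above both of remaining tissue for Fdx1, Cyb5a and Cyb5r3 (directions that turn under scaling to nuclear genes alone), whereas for Cyb5b they lay on either side.

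Family Cyp4 holds hydroxylases of fatty acids and eicosanoids, and none of its 8 members was tested. They summed to 61 and 56 normalized counts in remaining tissue and to 135 and 45 in isolated mitochondria. Of these members 3 were above, 2 below and 3 overlapping, against 18.4% above and 43.1% below among all genes. Those above, Cyp4f14, Cyp4f15 and Cyp4v3, rested on 2 to 5 reads per library of isolated mitochondria. Cyp4f16, below with no reads there, had only 2 and 1 normalized counts in remaining tissue. Cyp4f39, which makes ultra-long-chain hydroxy fatty acids of the skin barrier, is singled out here after its values were seen. It had 36 and 34 normalized counts in remaining tissue, the second highest level per kilobase, and 0 in both libraries of isolated mitochondria. Against the limit that a count of 0 allows, 3 reads per library or a mean of 21.2 normalized counts, it was at least 1.65-fold lower. The other 5 members of Cyp4f had 0 to 36 normalized counts in isolated mitochondria and 0 to 9 in remaining tissue.

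For enzymes of sterol and bile acid conversion other than Cyp27a1, no common direction can be given, since they rested on few reads or none. Cyp7b1, which hydroxylates oxysterols, had 2 and 0 normalized counts in remaining tissue and 72 and 20 in isolated mitochondria (limma 4.50, SE 1.89, adjusted p = 0.17). Cyp8b1, which sets the share of cholic acid in bile, had 2 and 0 against 9 and 10, which were 1 and 2 reads. Cyp39a1, an oxysterol hydroxylase, had 5 and 7 against 0 and 0. With 1 read worth 9.049 and 5.059 normalized counts in isolated mitochondria, its values of 0 there do not show a decrease. Cyp26b1, which clears retinoic acid, had 5 and 15 against 9 and 10, so the groups overlapped. Among P450 enzymes outside the symbol rule, Cyp51, of cholesterol synthesis, had 6 and 6 against 18 and 0. The 18 members not tested had at most 6 reads in any library of isolated mitochondria.

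Hepatocyte markers were also higher in isolated mitochondria on the deposited scale. All 10 hepatocyte markers, such as Alb and Apoa1, were in the table and were above remaining tissue in both libraries of isolated mitochondria. Among all genes listed this share was 18.4%. Their sum was 333 and 57 normalized counts in remaining tissue and 15121 and 2907 in isolated mitochondria, and 1 of the 10, Tat, was at 0 in remaining tissue replicate 2. Limma called 3 of the 10 higher and 0 lower, with a median difference of 5.44, against 7.32% higher and 9.30% lower of all genes tested. With edgeR 9 were called higher, against 16.0% of all genes tested. All but Alb and Apob had a mean under 20 in remaining tissue. These others passed the filter only through isolated mitochondria and had to be higher there, among them the 3 called by limma (Hpx, Serpina1c and Apoa2). DESeq2 called all 10 higher, as it did 1404 of all genes tested, whereas limma called 0 of the 10 at a minimum mean of 5. Alb, for albumin, had 185 and 30 against 6986 and 1629 (5.47, SE 1.17, adjusted p = 0.0509 with limma). Its difference was 4.42 without isolated mitochondria replicate 1 and 6.52 without replicate 2. It was 2.49 under scaling to nuclear genes alone and -1.40 under scaling to the total of all genes.

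Between replicates, the ratio of isolated mitochondria replicate 1 to replicate 2 was 3.0 to 7.58 for the 10 hepatocyte markers, with a median of 6.38, and 3.6 to 12.7 for the 11 tested members above remaining tissue, with a median of 5.94. All of these 11 but Cyp2e1 passed the filter only through isolated mitochondria, so their ratios are those of a selected set. Members above remaining tissue that were not tested had ratios from 0.6 (Cyp2d26) to 3.0 (Cyp4v3). In remaining tissue replicate 1 was above replicate 2 for 10 of the 11 tested members. The sum over all Cyp1 to Cyp3 genes, which is another set, was 1.21 times as high in replicate 1, against 5.84 times for the hepatocyte markers. The largest parts of that sum (98 and 81) were Cyp2u1 (30 and 29) and Cyp2e1 (17 and 29), which do not share the order of the other tested members. Per 1000 normalized counts of hepatocyte markers, Cyp1 to Cyp3 genes summed to 148 and 172 in the 2 libraries of isolated mitochondria. In those of remaining tissue they summed to 294 and 1420, where Cyp2u1 and Cyp2e1 were again the largest parts. The part of hepatocyte RNA in these differences was not tested.

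**Figure D4:**
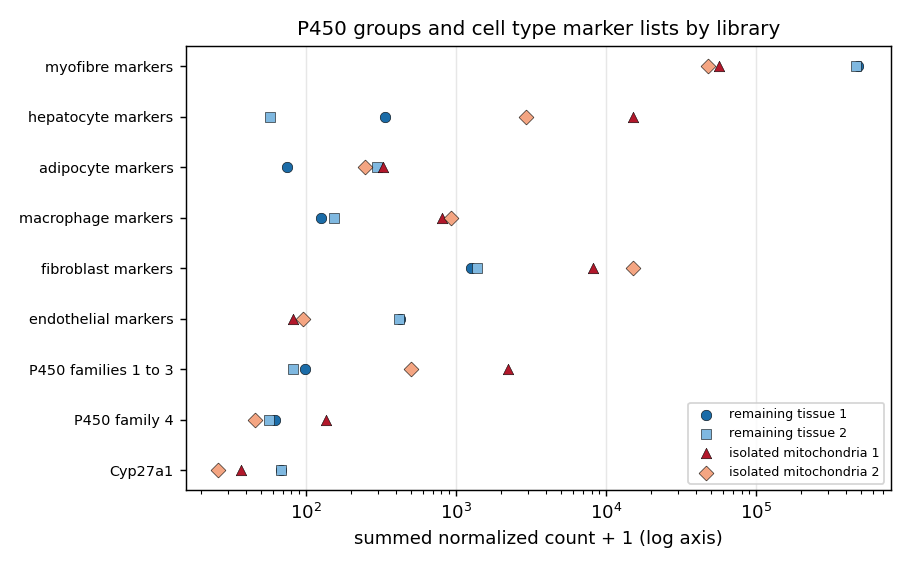
Summed normalized counts plus 1, on a log axis, of groups of P450 genes and of lists of cell type markers in each library. The sums of the Cyp1 to Cyp3 genes and of hepatocyte markers (15121 and 2907 in isolated mitochondria) were above remaining tissue in both libraries of isolated mitochondria and higher in replicate 1 than in replicate 2.

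Among the 11 tested members above remaining tissue, Cyp2e1 was the exception to the order of the replicates of remaining tissue, with 17 in replicate 1 and 29 in replicate 2. Some members outside these 11, such as Cyp26b1 (5 and 15), were also lower in replicate 1. Sums of macrophage (125 and 153) and fibroblast markers (1258 and 1380) in remaining tissue had the order of Cyp2e1, so it is not particular to 1 cell type. Adipocyte markers had that order too, with a sum of 74 and 297 normalized counts in remaining tissue and of 325 and 247 in isolated mitochondria. Pck1, which hepatocytes also make, gave 271 and 101 of the latter, and without it the sums in isolated mitochondria were 54 and 146, a comparison added after the values were seen. Their defining gene Adipoq had 6 and 29 in remaining tissue and 0 and 30 in isolated mitochondria. Cyp2e1 is known to be made in adipocytes as well as in liver, and their part in its level was not tested. Markers of other cells of muscle also shifted between fractions. Limma called 5 of 6 fibroblast and 5 of 5 tested macrophage markers higher in isolated mitochondria. It called 1 of 4 tested endothelial markers and 5 of 6 myofibre markers lower. Of all genes tested it called 7.32% higher and 9.30% lower. Among these macrophage markers, Adgre1 (mean of 6.0 in remaining tissue) passed the filter only through isolated mitochondria. For fibroblasts the sums of isolated mitochondria were 8126 and 15020, and rested mostly on Col1a1 and Col3a1. For macrophages they were 804 and 925, and rested mostly on Lyz2 (217 and 339), Mrc1 (217 and 202) and Csf1r (208 and 187). Dcn (1909 and 1852), Mrc1, Csf1r and Cd68 (45 and 20) were not lower in replicate 1. The other markers of these lists, Col1a1, Col3a1, Lum, Pdgfra, Pi16, Lyz2, Adgre1 and Cd163, were lower in replicate 1. Smooth muscle and pericyte markers summed to 635 and 556 in remaining tissue and to 226 and 339 in isolated mitochondria, and 0 of 4 were called by limma. Of the neuron markers, 2 of 2 tested, Rbfox3 and Cntn1, were called higher. Their means in remaining tissue were 0.0 and 1.0, so they passed the filter only through isolated mitochondria and had to be higher there. Steroidogenic and kidney lists were not analysed here.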

How the data were processed

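RNA of isolated mitochondria and remaining tissue of skeletal muscle was sequenced in 2 libraries per group, after a stranded low-input preparation in which fragmentation time was adjusted for mitochondrial RNA, so fragmentation and group cannot be told apart. By the study's methods, the authors trimmed reads, aligned them with STAR to GRCm38 with a raised mismatch limit, counted exonic reads with featureCounts without multimapping or multi-gene reads, and used DESeq2. The submitters' processing notes name Trimmomatic 0.39, STAR 2.7.10a, featureCounts 2.0.2 and DESeq2 1.30.1. The strand setting and the rule for listing genes are not given in the sources used here. The deposited values are a signal per gene, counts that the authors divided by size factors and rounded (normalized counts). RNase and digitonin treatment before RNA isolation is described for heart mitochondria, and whether it was used on muscle is not given.

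Whole reads were recovered for isolated mitochondria (99.952% of 10508 and 99.966% of 11660 low values were whole multiples of 1 read), and reads of remaining tissue were estimated from 8993 genes above 0 in all libraries (7.05 reads per normalized count). The main test was limma 3.58.1 with an intensity trend (R 4.3.3) on log2(normalized count + 1), for genes with a mean of at least 20, two-sided, threshold 0.05. This scale understates changes of low genes. An exact permutation test of 2 against 2 cannot give p under 0.333. edgeR 4.0.16 and DESeq2 1.42.0 on reads were alternatives, and edgeR called 1106 genes higher and 871 lower. The scripts were tested on simulated data. Wilson intervals at 95% and the floor of 3 reads cover counting error only.

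Members and lists were chosen with earlier results of these data known. Named with values were all members tested, mitochondrial P450s, members with 10 or more reads in a library of isolated mitochondria, Cyp51 and the electron transfer list. Others were named after their values were seen. Gene models were those of GENCODE M21, whose coordinates matched the table for all 31 members. Across 6916 genes, the log2 difference of replicate 1 minus replicate 2 in remaining tissue correlated with that in isolated mitochondria at r = 0.141. The labels do not tie same-numbered libraries to an animal.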

Additional observations from a re-analysis of the deposited data

How the results depend on the processing

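Where the test as reported called 1 member higher in isolated mitochondria, 0 were called at a minimum mean of 5, 0 under scaling to all genes together, 0 under scaling to nuclear genes (those outside the mitochondrial genome) and 0 by upper quartile, whereas 7 were called with edgeR and 11 with DESeq2. With the replicate block, 4 were called. The block also called 9 of 10 hepatocyte markers higher, against 3 without it. The labels do not say whether the numbers pair the libraries. A correlation of 0.141 across 6916 genes between the replicate differences of the groups does not settle it. Leaving out 1 library gave 3 to 8 calls (3 without isolated mitochondria replicate 1, 8 without replicate 2, 4 without either library of remaining tissue). In these fits the lone library of a group was assumed to vary like the other group. Where 0 were called lower, 1 was called at a minimum mean of 5 (Cyp4f39), 2 without a filter, 5 under scaling to all genes together and 1 to nuclear genes, and 0 to 2 with 1 library left out (1 without isolated mitochondria replicate 1, 2 without replicate 2).

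With all genes together as the scale, log2 differences turned for Cyp2e1 (-3.03), Cyp3a11 (-2.32), Cyp2f2 (-2.12), Cyp2d9 (-1.79), Cyp2j5 (-1.42), Cyp3a25 (-0.23) and Cyp7b1 (-0.08). That scaling carries the mitochondrial share of reads by construction. Cyp2u1 turned with edgeR (0.74) and DESeq2 (0.65), and ranged from -1.61 to 1.02 with 1 library left out. The call of Cyp2e1 as higher was lost under 7 of the 14 alternatives, including the turn in direction, with adjusted p from 2.79e-07 (replicate block) to 0.258 (nuclear genes as the scale) over all alternatives. The cause was not tested.

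Over all genes tested, 506 were called higher and 643 lower. These counts were 283 and 399 at a minimum mean of 5, 665 and 3026 without a filter, 38 and 6694 by all genes together, 114 and 5642 by nuclear genes (median log2 difference -3.34), 619 and 435 by upper quartile, 438 and 374 without a trend, 630 and 1144 with the replicate block, 1106 and 871 with edgeR and 1404 and 877 with DESeq2. Without isolated mitochondria replicate 1 or 2 they were 1724 and 2774 or 1643 and 3198, and without remaining tissue replicate 1 or 2, 296 and 176 or 313 and 188. Depth limits every member outside Cyp2e1, since none of the others had over 39 reads in a library of isolated mitochondria.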
